A study of Mus musculus with 8 samples.

Results

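Ets1, Ets2, Etv2, Etv4, Etv5, Etv6, Elf1, Elf2, Elf4 and Elk3 are members of the ETS family of transcription factors, and their transcripts were followed across an induction of Runx1 in mouse hemogenic endothelium. Every probe whose RefSeq accession mapped to one of these 10 symbols was taken, which gave 16 of the 55681 probes on the array. Of the genes, 5 had 1 probe and 5 had several, and all 10 passed the filter on dim probes, among 14519 genes tested. The cells were C57BL/6 embryonic stem cell derivatives that carry iRUNX1, a Runx1 gene switched on by doxycycline through a Tet-on system. In the induced group the cells received doxycycline overnight, and in the uninduced group the same kind of cells went without it. Cells of both groups had been sorted for the receptor Flk-1 (Kdr), cultured, sorted again and grown as hemogenic endothelium, cells of the vessel lining that can still give rise to blood, in a medium that contained basic FGF, stem cell factor and oncostatin. Each group had 3 biological replicates on 1-colour Agilent arrays, plus 1 technical repeat array that stayed out of every test. The sources used here do not give whether the cells' own Runx1 gene is intact, how many clones of the line were used or which replicate the repeat arrays hold. Cells without the construct that received doxycycline were not analysed here, so an effect of doxycycline and one of Runx1 cannot be told apart.

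ETS factors bind DNA through a shared winged helix-turn-helix domain that reads the core letters GGAA, and endothelial and blood gene enhancers are rich in such sites. Members differ in what they do once bound: Ets1 and Ets2 are activators downstream of growth factor signalling, Etv4 and Etv5 belong to the PEA3 group that FGF and ERK signalling switches on, Elk3 is a ternary complex factor that works with serum response factor, Etv6 is a repressor, and Elf1, Elf2 and Elf4 form the ELF group. Etv2 starts the endothelial and blood programme in the embryo and is then shut off. RUNX1 and ETS factors often bind side by side, and the pairing of RUNX1 with Ets1 on DNA is among the best studied.

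Stretches of 250 bases before a start site are shown for Elk3 and Etv6, a member with lower and a member with higher signal in the induced group. A window of 30 bases is shown for Etv2, whose upstream region held 10 GGAA matches. That window was picked for holding the most matches, 4, and does not represent the whole region. All are RefSeq sequences of the GRCm38.p6 build on the gene's strand, with GGAA or its reverse complement TTCC in capitals. The Elk3 stretch is chr10:93311160-93311409 on the minus strand, the Etv6 stretch is chr6:134035450-134035699 on the plus strand, and the Etv2 window is chr7:30635970-30635999 on the minus strand, from 147 to 118 bases before the start.
Elk3: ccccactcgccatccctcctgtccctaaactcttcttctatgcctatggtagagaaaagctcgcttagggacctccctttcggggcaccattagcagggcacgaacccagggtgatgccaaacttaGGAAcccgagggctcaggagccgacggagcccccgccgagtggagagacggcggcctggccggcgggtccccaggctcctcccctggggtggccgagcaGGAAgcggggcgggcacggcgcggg
Etv6: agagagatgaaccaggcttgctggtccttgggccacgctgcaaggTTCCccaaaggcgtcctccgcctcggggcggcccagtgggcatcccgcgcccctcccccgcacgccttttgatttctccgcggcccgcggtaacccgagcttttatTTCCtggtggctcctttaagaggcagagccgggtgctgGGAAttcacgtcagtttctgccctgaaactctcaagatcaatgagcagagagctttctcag
Etv2: gaaGGAActGGAAaccaataTTCCttTTCC
Upstream stretches were at hand for 8 of the 10 members, 12 stretches in all because some genes have several starts. The letters GGAA, read on both strands, were present in 10 of the 12, and in 93.4% of the 32851 mouse promoters of the same length. The longer ETS letters CCGGAA, which contain GGAA, were in 0 of the 12 and in 12.03% of all promoters. The RUNX letters TGTGGT, which contain neither, were in 0 of the 12 and in 14.05% of all promoters.

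Signals are given as log2 of the processed signal relative to the 75th percentile of the same array, so 0 is the level of that percentile and 1 unit is a 2-fold difference. Because a probe's brightness also depends on its sequence, levels are compared between arrays for 1 probe and not between probes. The brightest probe stands for each gene, differences are induced minus uninduced, and a gene passed the test at an adjusted p under 0.05 (limma, Benjamini-Hochberg over all 14519 genes). Of the 10 ETS factors, 0 passed, and 1 (Ets1) had an unadjusted p under 0.05, while 915 genes, 6.3% of all tested, passed, 4.14% higher and 2.16% lower in induced cells. An unadjusted p under 0.05 was found for 21.6% of all genes. The balance of directions depended on the scaling, with 601 genes higher and 314 lower here, 717 higher and 215 lower under median centring, and 720 higher and 11 lower when arrays were scaled to spike-in controls. Of the 16 probes 0 passed in the fit over probes (3 at an unadjusted p under 0.05), where 3.65% of all probes did. Fitted with the replicate number as a block, the test called 2 of the 10, Ets1 and Elk3, both lower in induced cells, against 16.2% of all genes called and 6.8% called lower. The groups did not overlap for 1 of the 10 genes and 1 of the 16 probes, against 28.3% of all genes and 23.3% of all probes. On this scale 8 members had a negative difference and 2, Etv2 and Etv6, a positive one. The median difference of the 10 was -0.14, against 0.09 for all genes. Under a scaling to spike-in controls 7 of the 8 negative differences turned positive and only that of Ets1 kept its sign, as described further on.

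**Figure D1:**
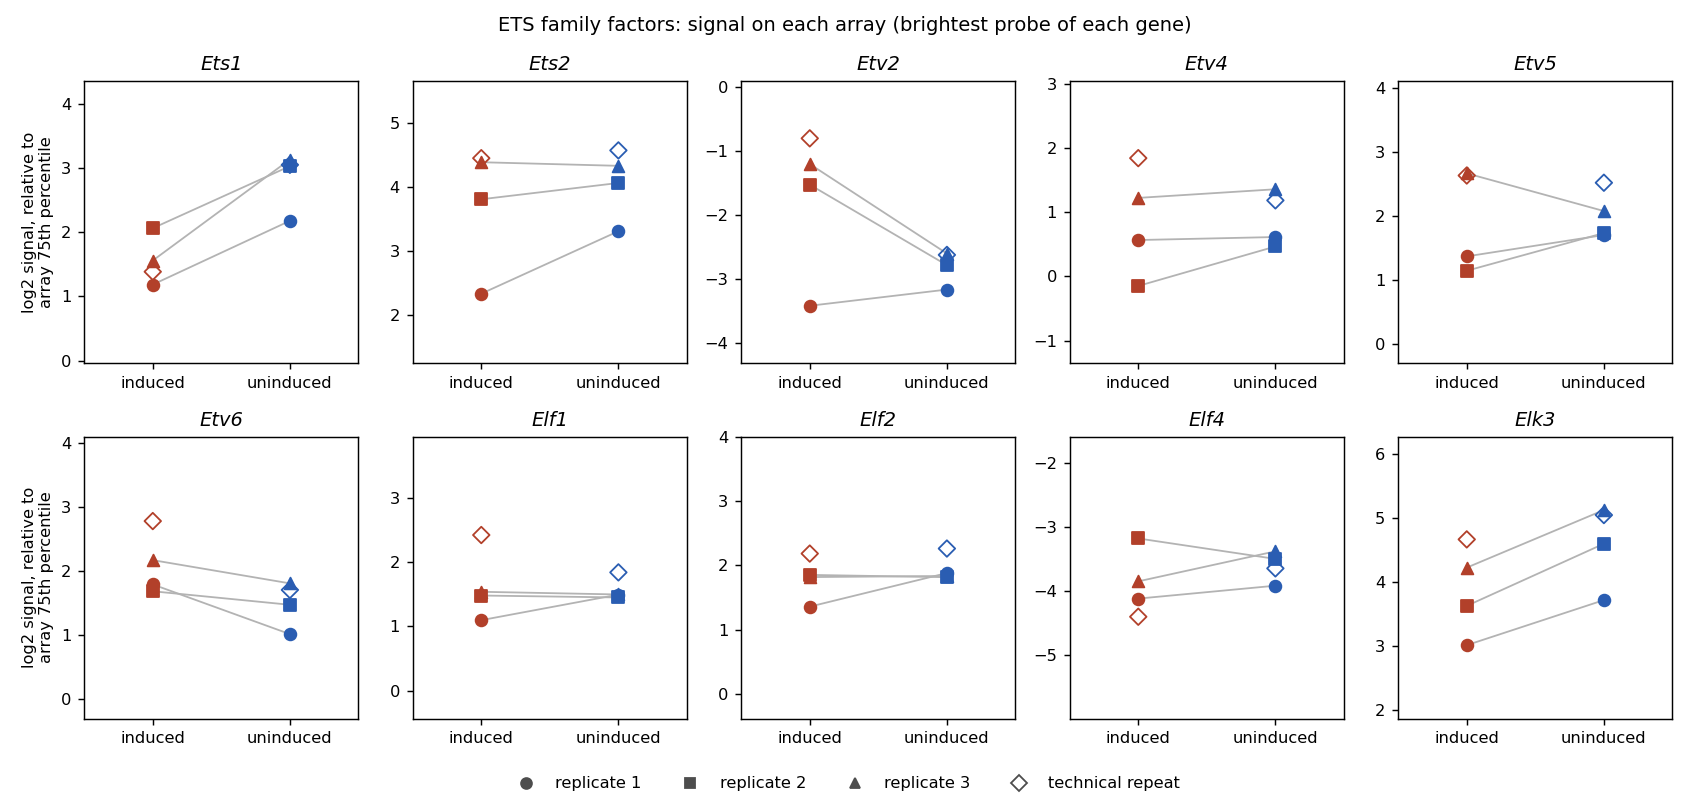
Log2 signal of each ETS factor, relative to the 75th percentile of its array, on the 4 induced arrays (red) and the 4 uninduced arrays (blue); each panel spans the same number of log2 units, lines join arrays with the same replicate number and open diamonds are the technical repeats. The 3 induced replicates of Ets1, between 1.18 and 2.06, all lie below the uninduced ones, which lie between 2.18 and 3.14, and the lines of Elk3 all run the same way.

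Ets1, an activator that partners RUNX1 on DNA, had the largest difference of the 10. Its brightest probe, A_52_P232830, read 1.18, 2.06 and 1.56 in induced replicates 1, 2 and 3, against 2.18, 3.03 and 3.14 in uninduced replicates 1, 2 and 3. Every induced array lay below every uninduced one, which held for no other member. Among all genes 8.71% had all induced arrays below the uninduced, a share near that of 1 in 10 members. The means were 1.60 ± 0.44 in induced cells and 2.78 ± 0.53 in uninduced cells (SD, n = 3 each), 2.27-fold lower in the induced group. The difference of -1.18 had an SE of 0.33 and a 95% interval of -1.97 to -0.39, and it missed the threshold without the block (limma adjusted p = 0.100) and passed it with the block (limma adjusted p = 0.012). Within the replicate numbers it was -0.99, -0.97 and -1.58. Without uninduced replicate 1 the difference was -1.48 and passed the threshold without the block (limma adjusted p = 0.0436), and over the removal of each array in turn it ran from -1.48 to -0.97 with limma adjusted p between 0.0436 and 0.294.

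The second Ets1 probe, A_52_P194250, read 1.62, 1.65 and 2.02 in induced cells, against 2.02, 2.30 and 2.69 in uninduced cells. The groups met at the top induced and the bottom uninduced array. Its difference was -0.57 with an SE of 0.23 (limma adjusted p over probes = 0.263 without and 0.0736 with the block). The first probe's difference was lower than the second's by 0.61 ± 0.29 (SD over the 3 replicate pairs), in every pair.

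Ets2, the close paralogue of Ets1, read 2.33, 3.80 and 4.38 in induced cells, against 3.30, 4.06 and 4.32 in uninduced cells. The groups overlapped over most of their range, and the widest gap lay between the 2 arrays of replicate 1. The difference of -0.39 (SE 0.54) was smaller than the spread between replicates (limma adjusted p = 0.698), and within replicate numbers it was -0.97, -0.25 and 0.06.

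Elk3, which represses serum response genes until ERK signalling turns it into an activator and is known for a part in vessel formation, was measured by 3 probes. The brightest, A_55_P2018994, read 3.02, 3.63 and 4.23 in induced cells, against 3.72, 4.60 and 5.12 in uninduced cells. The ranges of the groups overlapped, because replicate 1 was low and replicate 3 high in both, while each induced array lay below the uninduced array of its own number. The difference was -0.86 (SE 0.44, 95% interval -1.90 to 0.18), with a limma adjusted p of 0.308 without the block and 0.013 with it. The values within replicate numbers were -0.70, -0.97 and -0.90. With each array removed in turn the difference ran from -1.24 to -0.54, and it passed without the block in none of these fits (limma adjusted p from 0.12 to 0.599).

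A dimmer Elk3 probe, A_55_P2018989, read -2.11, -0.91 and -1.49 in induced cells, against -1.26, 0.09 and 0.37 in uninduced cells. Its difference of -1.24 (SE 0.48) passed with the block alone (limma adjusted p over probes = 0.260 without and 0.0393 with it). The third, A_55_P1972927, read 2.72, 3.04 and 3.96 in induced cells, against 3.31, 3.78 and 4.36 in uninduced cells, a difference of -0.58 (SE 0.39) that did not pass in either fit. All 3 Elk3 probes were lower in the induced array of every replicate pair. Differences between probes of Elk3, up to 0.66 ± 0.69 (SD, n = 3 pairs) in size, were about as large as their spread or smaller, except between A_55_P2018994 and A_55_P1972927, where the first probe's difference was lower by 0.28 ± 0.20.

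**Figure D2:**
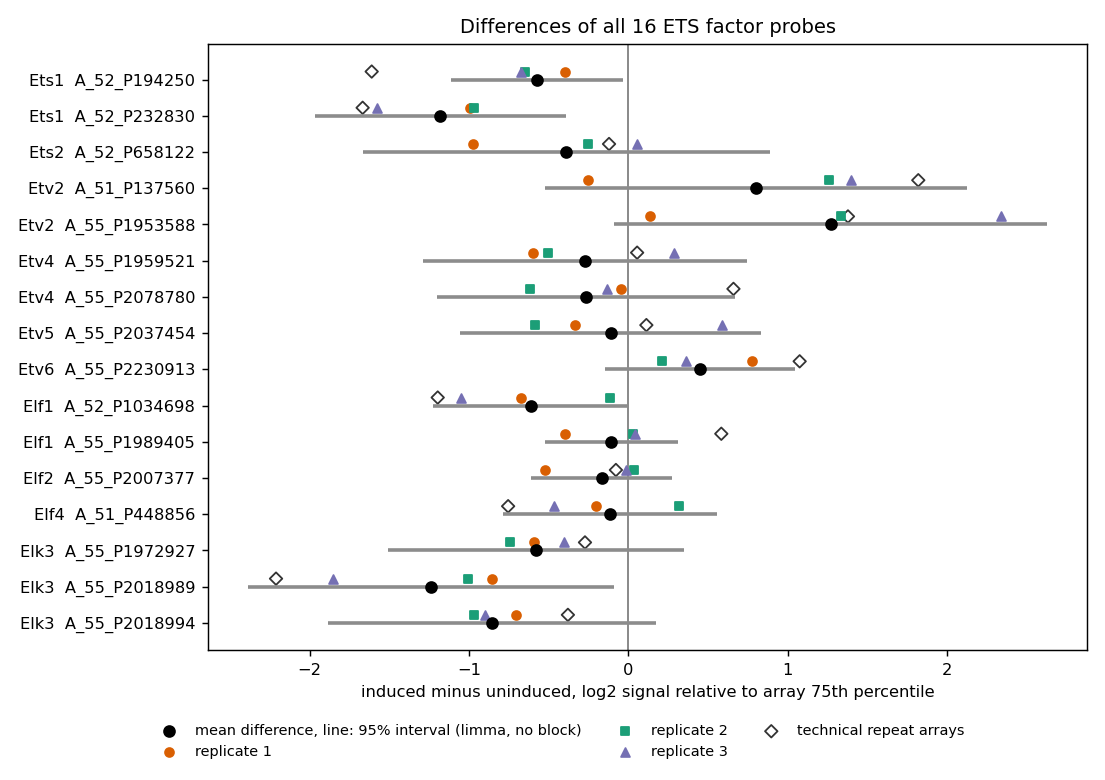
Difference in log2 signal, induced minus uninduced, for all 16 ETS factor probes; black points are means over 3 replicates with 95% intervals from limma without the block, coloured symbols are the 3 replicate pairs and open diamonds the technical repeat arrays. The interval of the Ets1 probe A_52_P232830 ends at -0.39, and the 3 replicate pairs of all Elk3 probes lie left of 0.

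Etv2, the factor that opens the endothelial and blood programme, had the highest positive difference of the 10 on this scale. Its brighter probe, A_51_P137560, read -3.42, -1.53 and -1.21 in induced cells, against -3.17, -2.79 and -2.61 in uninduced cells. Induced replicates 2 and 3 lay above every uninduced array and induced replicate 1 lay below them all. The difference of 0.80 (SE 0.56, 95% interval -0.55 to 2.15) did not pass (limma adjusted p = 0.442, and 0.175 with the block). The value moved with single arrays: without induced replicate 1 it was 1.48 and passed (limma adjusted p = 0.0317 without the block), without induced replicate 2 it was 0.54 (limma adjusted p = 0.636) and without induced replicate 3 it was 0.38 (limma adjusted p = 0.768). With normexp background correction it was 0.34, below the 0.53 of Etv6. The second probe, A_55_P1953588, read -4.60, -2.59 and -2.76 in induced cells, against -4.73, -3.93 and -5.10 in uninduced cells, where it was well above background on 2 of the 3 arrays. It had a difference of 1.27 (SE 0.57) and values within replicate numbers of 0.14, 1.34 and 2.34, and did not pass (limma adjusted p over probes = 0.318). Induced replicate 1 was thus the lowest induced array of Etv2 on both probes, as it was of 7 of the 10 members on their brightest probe.

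Etv6, a repressor that blood stem cells of the mouse bone marrow need, was the other member with a positive difference. It read 1.79, 1.69 and 2.17 in induced cells, against 1.02, 1.48 and 1.81 in uninduced cells. Each induced array was above the uninduced array of its number, by 0.78, 0.21 and 0.36, although the groups overlapped. The difference of 0.45 (SE 0.25, 95% interval -0.14 to 1.04) did not pass (limma adjusted p = 0.338, and 0.113 with the block).

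Etv4 and Etv5 are FGF response genes of the PEA3 group. Etv4 on A_55_P2078780 read 0.57, -0.15 and 1.23 in induced cells, against 0.62, 0.47 and 1.36 in uninduced cells. Its groups overlapped, and the difference of -0.27 (SE 0.39) did not pass (limma adjusted p = 0.717). The dimmer probe A_55_P1959521 read -1.88, -2.24 and -0.66 in induced cells, against -1.28, -1.74 and -0.95 in uninduced cells, and its difference of -0.27 (SE 0.43) did not pass either. Etv5 read 1.37, 1.14 and 2.66 in induced cells, against 1.70, 1.73 and 2.07 in uninduced cells. Induced replicate 3 was the highest Etv5 array of the 6 and the other induced arrays the lowest, and the difference was -0.11 (SE 0.40, limma adjusted p = 0.889).

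On the brightest probes the ELF group lay close to no difference. Elf1 read 1.10, 1.48 and 1.54 in induced cells, against 1.50, 1.45 and 1.50 in uninduced cells. Elf2 read 1.36, 1.85 and 1.82 in induced cells, against 1.88, 1.82 and 1.84 in uninduced cells. Induced replicate 1 was the low array of both genes, and the other 5 arrays lay between 1.45 and 1.54 for Elf1 and between 1.82 and 1.88 for Elf2. Elf4, known in blood for its part in natural killer cells, read -4.12, -3.18 and -3.85 in induced cells, against -3.92, -3.50 and -3.39 in uninduced cells. Its only probe was dim, with processed signals between 32.3 and 65.4 on these arrays, which limits what its interval shows. The 95% intervals were -0.50 to 0.29 for Elf1, -0.59 to 0.25 for Elf2 and -0.79 to 0.55 for Elf4, and these 3 of the 10 members had an interval within 2-fold in either direction on the brightest probe. The dimmer Elf1 probe, A_52_P1034698, read -2.72, -1.92 and -2.72 in induced cells, against -2.04, -1.81 and -1.67 in uninduced cells. It was lower in the induced array of every pair, with a difference of -0.61 (SE 0.26, limma adjusted p over probes = 0.292) that did not pass and a 95% interval of -1.23 to 0.0028 that runs past 2-fold, and it stood apart from the brighter probe by 0.50 ± 0.51 (SD, n = 3 pairs).

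From the highest to the lowest difference the brightest probes came in the order Etv2 0.80, Etv6 0.45, Elf1 -0.11, Etv5 -0.11, Elf4 -0.12, Elf2 -0.17, Etv4 -0.27, Ets2 -0.39, Elk3 -0.86 and Ets1 -1.18. Neighbours from Elf1 to Ets2 in this order differed by less than the SE of either. The difference had 1 sign in all 3 replicate pairs for 4 of the 10 members, Ets1, Elk3 and Etv4 below 0 and Etv6 above it, against 59.4% of all genes.

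Since a fixed factor per array cancels in a ratio within an array, each member was also set against the mean of the other 9 on the same array, a measure chosen after the values had been seen. On it 4 of the 10 members had groups that did not overlap, against 14.4% of 14488 genes set against the mean of the 10. These shares are not like for like, because members can share an array pattern with their reference that other genes lack. Induced replicate 1 was the lowest induced array for 7 of the 10 members. Ets1 stood at 0.74, 1.09 and 0.12 above that mean in induced cells, against 1.44, 2.00 and 1.80 in uninduced cells, a difference of -1.09. Elk3 stood at 2.78, 2.83 and 3.08 in induced cells, against 3.15, 3.74 and 4.01 in uninduced cells, a difference of -0.74. Etv2 stood at -4.37, -2.90 and -2.96 in induced cells, against -4.50, -4.47 and -4.58 in uninduced cells, a difference of 1.11. Etv6 stood at 1.42, 0.68 and 0.80 in induced cells, against 0.15, 0.27 and 0.33 in uninduced cells, a difference of 0.72. The measure was not tested, and it ties the members together, since a lower level of Ets1 or Elk3 raises the standing of the others. The other 6 members had overlapping groups on this measure, with differences between -0.22 and 0.10.

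The level to which arrays are scaled mattered for the sign of the small differences. The 75th percentile of an array was higher against the spiked-in control transcripts in induced cells than in uninduced cells of the same number, by 1.02, 0.75 and 1.61 log2 units. Scaled to those spike-ins instead, the median difference of all genes was 1.22, and the members ran between -0.05 for Ets1 and 1.93 for Etv2, with Elk3 at 0.27, Ets2 at 0.74 and Etv6 at 1.58. Relative to that median Ets1 was at -1.27, Elk3 at -0.95 and Etv2 at 0.71. A fixed value per array cancels in this, so the 75th percentile and median scalings give the same values. The spike-ins therefore add nothing to the standing of the members among all genes. None of the 10 passed under spike-in scaling either. With median centring, Elf1, Elf4 and Etv5 had positive differences of 0.05, 0.04 and 0.05, and with quantile normalization Elf4 had one of 0.03. In bulk RNA, fewer cells with a transcript and less of it per cell cannot be told apart.

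**Figure D3:**
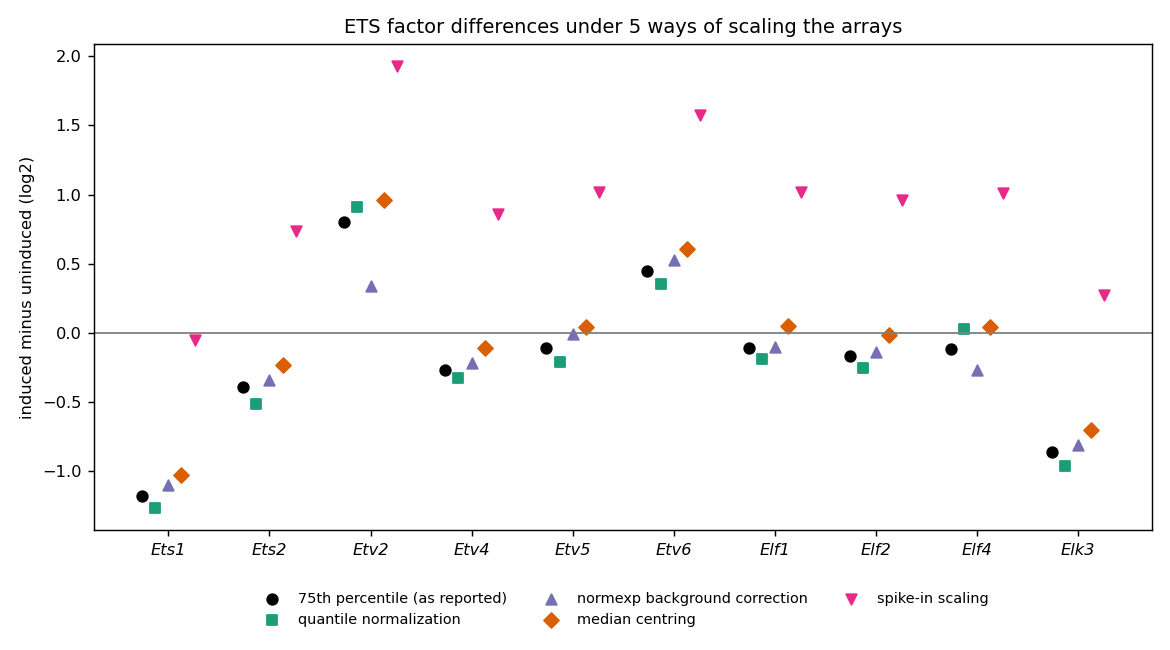
Difference in log2 signal, induced minus uninduced, of the 10 ETS factors (brightest probe) under 5 ways of scaling the arrays. Spike-in scaling puts all members but Ets1 above 0, with Ets1 at -0.05. The 75th percentile, median and spike-in scalings subtract a fixed value per array, so the order of the members cannot differ between them. Quantile normalization, which could change the order, also has Ets1 and Elk3 lowest and Etv2 highest. Normexp background correction has Ets1 and Elk3 lowest and Etv6 highest.

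The induced technical repeat array lay on the same side of the uninduced technical repeat as the replicates did for 12 of the 16 probes. The matching share of all probes was not worked out. Ets1 read 1.38 on the induced and 3.05 on the uninduced repeat, a wider gap than the mean of the replicates. The brightest Elk3 probe read 4.67 on the induced and 5.05 on the uninduced repeat, a narrower gap, while on the Elk3 probe A_55_P2018989 the repeats were -2.21 apart, wider than the -1.24 of the replicates. Etv2 read -0.81 on the induced and -2.63 on the uninduced repeat, and Etv6 2.78 on the induced and 1.71 on the uninduced repeat. The signs were opposite to those of the replicates for both Etv4 probes, Etv5 and the brighter Elf1 probe.

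Likeness of profile was computed for Ets1, the member with the largest difference in size. Over the 6 replicate arrays, each profile centred on its own mean, the nearest of all tested genes were Fzd8, a Wnt receptor, at a root mean square distance of 0.0978 log2 units, Krt80, a keratin, at 0.129 and Amz1, a metallopeptidase, at 0.159. The median distance over all genes was 0.80. Their own differences were -1.09 for Fzd8, -0.98 for Krt80 and -0.91 for Amz1, and the 3 passed with the block (limma adjusted p = 0.0083 for Fzd8, 0.0248 for Krt80 and 0.013 for Amz1) and not without it. These genes were picked for likeness to Ets1 on the same 6 arrays. Differences and calls like those of Ets1 thus follow from the choice and are no separate result.

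Of the 17 other mouse ETS genes, 12 were bright enough to test, and 0 passed in either direction (2 at an unadjusted p under 0.05, against 21.6% of all genes), with a median difference of -0.22. The 2 brightest, Elk1 and Erf, had differences of -0.34 (SE 0.21) and -0.25 (SE 0.16). With the block 3 passed, against 16.2% of all genes, and they are named here after their values were seen. Erg, an endothelial factor that keeps vessels stable, read -2.78, -0.61 and -0.06 in induced cells, against -0.66, 1.20 and 1.37 in uninduced cells, and fell by 1.79 (limma adjusted p = 0.00437 with the block and 0.27 without). Elk4, a ternary complex factor like Elk3, fell by 1.30 (limma adjusted p = 0.0362 with the block and 0.18 without). Spi1, the myeloid factor PU.1, stayed below the well-above-background call on all 3 uninduced arrays and read -5.32, -2.94 and -5.34 in induced cells. The lowest well-above-background signals of the uninduced arrays were -6.04, -5.45 and -4.72. Against the mean of these limits the induced mean was at least 1.83-fold higher. Induced replicate 2 was the highest, and induced replicate 3 lay below the uninduced limit of its number. On the values as read, Spi1 passed with the block alone (limma adjusted p = 0.0305, and 0.072 without).

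Among 20 genes that answer to FGF and ERK signalling, 0 passed without the block (5 at an unadjusted p under 0.05, against 21.6% of all genes), and the median difference was -0.16. With the block 3 rose and 4 fell, against 9.37% of all genes higher and 6.8% lower. Fos, an immediate early gene that ternary complex factors drive, read 0.90, 0.24 and 0.90 in induced cells, against 2.63, 1.27 and 2.69 in uninduced cells, and fell by 1.52 in the fit with the block (limma adjusted p = 0.0088, and 0.0941 without). Phlda1 averaged 3.75 ± 0.54 in induced cells and 4.82 ± 0.23 in uninduced cells (SD, n = 3 each; limma adjusted p = 0.0145 with the block and 0.0905 without). Dusp6, the ERK phosphatase often used as a readout of FGF signalling, averaged 4.00 ± 0.49 in induced cells and 4.20 ± 0.29 in uninduced cells and passed in neither fit. Il17rd, an inhibitor of FGF receptor signalling, had a positive difference of 0.80 that passed with the block alone (limma adjusted p = 0.0244, and 0.0801 without). Fos and Il17rd were named after their values were seen.

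Among 24 endothelial and early blood genes with known ETS sites in a promoter or enhancer, 1 rose and 2 fell without the block, against 4.14% of all genes higher and 2.16% lower, and the median difference was -0.43. The list also holds the proteases Mmp9 and Plau, and Egr1, which is counted among the FGF and ERK response genes too. An unadjusted p under 0.05 was found for 7 of them, against 21.6% of all genes. Tek, the angiopoietin receptor, read -0.40, 0.06 and 0.30 in induced cells, against 0.90, 1.04 and 1.41 in uninduced cells, and fell by 1.13 (SE 0.24, limma adjusted p = 0.0414). Eng, a TGF-beta co-receptor of endothelium, read 2.58, 2.92 and 2.96 in induced cells, against 3.68, 3.83 and 3.70 in uninduced cells, and fell by 0.92 (SE 0.16, limma adjusted p = 0.0234). Mmp9, a matrix metalloprotease, had no uninduced array well above background and was kept through the induced group alone. Against the mean of the limits of the uninduced arrays its induced mean was at least 5.74-fold higher. On the values as read it passed (limma adjusted p = 0.00198). With well above background required on all 6 arrays, 23 of the list were tested, of which 0 rose and 2 fell. Kdr and Cdh5, the brightest of the others, had differences of -0.34 (SE 0.34) and -0.28 (SE 0.48). Under spike-in scaling and under median centring 1 of the 24 rose and 0 fell. The same counts were found when any 1 array but uninduced replicate 1 was left out, and with normexp background correction 0 rose and 2 fell. With the block 3 of the 24 rose and 9 fell, against 9.37% of all genes higher and 6.8% lower.

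**Figure D4:**
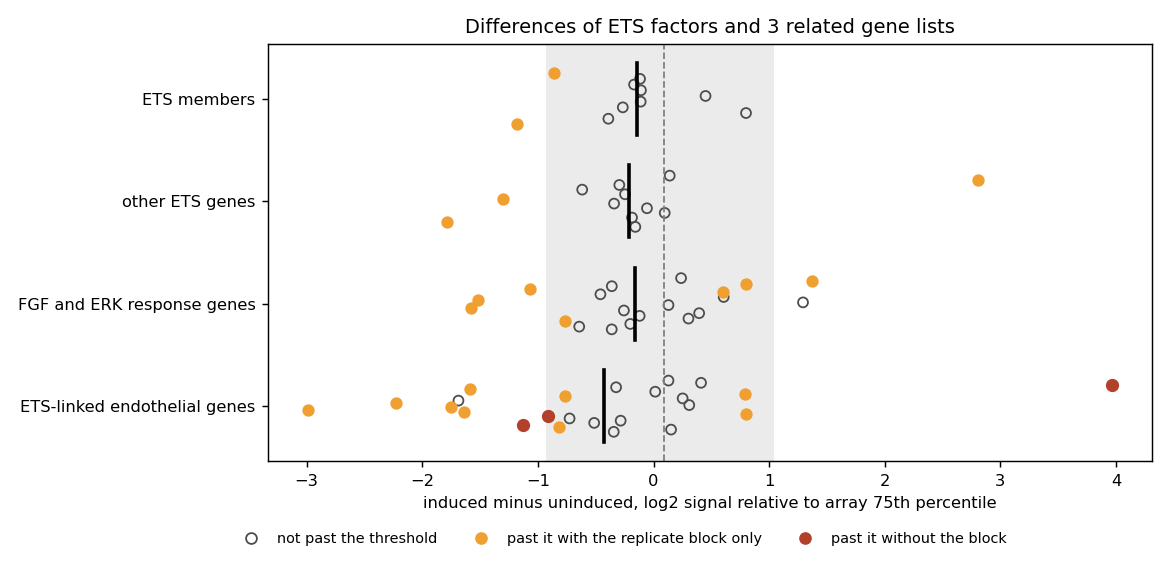
Difference in log2 signal, induced minus uninduced, of the 10 ETS factors, 12 other ETS genes, 20 FGF and ERK response genes and 24 ETS-linked endothelial genes; thick bars are list medians, the dashed line the median of all genes (0.09) and the grey band the 5th to 95th percentile of all genes (-0.92 to 1.04). Ets1 lies outside the band and the other 9 ETS factors inside it, and the points past the threshold without the block are all in the endothelial list.

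The labelled cell type was checked on marker lists in the same fit. All 8 endothelial and hemogenic markers were detected and 1 rose (Gfi1, by 3.37) while Tek and Sox17 fell, and Sox17 fell by 3.54. Of 8 blood markers, Spn rose by 4.51, Csf1r fell by 1.33 and 6 did not pass, of which Spi1 passed with the block. Of 5 smooth muscle markers 4 were detected and 0 passed without the block, while with it Acta2 fell by 0.65 (limma adjusted p = 0.0266), and log2 of their summed level lay between 8.95 and 9.25 in induced cells, against 9.48 and 9.67 in uninduced cells. The 5 cardiac markers summed, on the same log2 scale, to between 2.46 and 4.60 in induced cells, against 3.73 and 5.85 in uninduced cells, and 3 fell with the block. Of 5 embryonic stem cell markers, 4 were detected and Pou5f1 was not. Of 5 epithelial markers 3 were detected, and Epcam and Cldn6 were not. Cdh1 rose by 2.27, while Krt8 and Krt18 did not pass, with differences of -0.61 and 0.09. The part of other cell types in the ETS factor values was not tested. The Runx1 probes did not check the labels, because the sources used here do not say which stretch of Runx1 the construct holds. One read -6.14, -5.71 and -4.95 in induced cells, against -4.71, -4.72 and -4.28 in uninduced cells, and the other was not well above background on any array. Across arrays 55.6% to 70.4% of spots were well above background, and the 75th percentile of the processed signal lay between 543 and 973 in induced cells, against 338 to 699 in uninduced cells.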

How the data were processed

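Total RNA of 8 samples was labelled with Cy3 and hybridised to 1-colour Agilent arrays, all on 1 slide in 1 scan. The authors deposited Feature Extraction output with the processed signal as an intensity per spot, already background-subtracted by the software, and background and outlier flags (version 10.7.3.1 and build mm9 per the file headers, version 10.7.1.1 and limma per the submitters' processing notes). A log2 value table was deposited too, and the sources used here do not give its normalization. Its columns have medians of 5.36 to 5.38, only 2 of its 8 columns track the array they are named for and 6 track another, and its centring stays unknown, so it served as an alternative in both readings.

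Control and outlier spots were left out, each array's 75th percentile was subtracted from the log2 processed signal, and repeat spots were averaged by probe. A probe was kept if well above background on all 3 arrays of at least 1 group, and a gene was represented by its brightest kept probe. Names came from RefSeq accessions through a GRCm38.p6 table, in which 26582 probes had 1 symbol, 29099 had none and 0 had several. Groups were compared with limma 3.58.1 in R 4.3.3 (lmFit, eBayes, two-sided, Benjamini-Hochberg adjustment over all genes or probes), tested on simulated data first. The number of arrays limits the precision. The sample titles give replicate numbers only, and a pairing by number was read from the values. Deviations from the group means correlated at 0.61, 0.40 and 0.31 between arrays of the same number. Between arrays of different numbers the correlations ran from -0.43 to 0.17. Deviations sum to 0 within a group, so positive values at the same number push the others down, and this contrast is partly built in. Results are therefore given both without and with the replicate block. Alternatives were other scalings, normexp on the median signal (the files used here hold no mean signal), the deposited log2 table, no filter, the replicate block and leaving out each array. The labels call the replicates independent biological ones, and the p-values rest on that.

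The members and lists were chosen with earlier results of these data known. Named genes are all members, and the 3 genes nearest in profile to the member with the largest difference. Of each list other than the markers, those past the threshold (at most 4) and the 2 brightest others are named. Of the marker lists, those past the threshold and some others are named. Other names were chosen after values were seen, as stated where they occur.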

Additional observations from a re-analysis of the deposited data

Results flagged for a closer look

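The technical repeat arrays entered no comparison, and on 7 of the 16 ETS factor probes the induced repeat read above every uninduced array, the uninduced repeat included. The share of all probes that did so was not worked out, so this count is not a trait of the ETS factors. Etv2 read -0.81 on probe A_51_P137560 and -2.75 on A_55_P1953588, Etv4 read 1.85 on A_55_P2078780 and -0.78 on A_55_P1959521, Etv5 read 2.63, Etv6 read 2.78, and Elf1 read 2.43 on A_55_P1989405, each as log2 signal relative to the array's 75th percentile. Induced replicates 2 and 3 also lay above every uninduced replicate on both Etv2 probes, while Etv4 and Elf1 had overlapping groups of replicates. The induced repeat lay above every induced replicate too on A_51_P137560, A_55_P2078780, the Etv6 probe and A_55_P1989405. The highest induced replicates there read -1.21, 1.23, 2.17 and 1.54, so the repeat matched the reading of none of them. The cause was not tested, and the sources used here do not say which replicate's RNA the repeat holds.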

How the results depend on the processing

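Over the 10 members, 8 of the values with 1 array left out and 19 of those under other settings changed sign, and the rest kept it; 4 values passed the threshold that the reported ones missed, named in the text. The replicate block changed no other member's call. With the replicate block 2 members, 3 other ETS genes, 7 FGF and ERK response genes, 12 endothelial genes, 2347 genes and 2900 probes passed; the cause was not tested. Without the filter 534 genes, 403 probes and 1 endothelial gene passed. In the columns as named, the authors' log2 table mixes the groups. Its columns named induced 1, 2 and 3 track uninduced replicate 2, the uninduced technical repeat and induced replicate 2. Those named uninduced 2 and 3 track uninduced replicate 3 and induced replicate 1. In this reading 0 genes, 0 probes and 0 endothelial genes passed. Differences turned to 0.62 for Ets1, 0.89 for Ets2, 0.15 for Etv5, 0.30 for Elf1, 0.28 for Elf2, 0.38 for Elf4 and 0.49 for Elk3. These sign changes count among the 19, but come from mixed groups and do not show an effect of the processing. With the columns set to the array they track, Elf4 was at 0.17 and 1 FGF and ERK response gene passed. Spike-in scaling gave 0.74 for Ets2, 0.86 for Etv4, 1.02 for Etv5, 1.02 for Elf1, 0.96 for Elf2, 1.01 for Elf4 and 0.27 for Elk3, and 1 other ETS gene, 2 FGF and ERK response genes and 1 endothelial gene passed. Median centring gave 0.046 for Etv5, 0.048 for Elf1 and 0.040 for Elf4, with 1 other ETS gene and 1 endothelial gene past the threshold, and shifted the median of all genes to 0.25. Normexp background correction gave 0.34 for Etv2 and 0.53 for Etv6. Quantile normalization gave 0.030 for Elf4, with 1 other ETS gene past it. Leaving out 1 array gave 359 to 819 genes, 371 to 995 probes, 0 to 1 members, 0 to 1 FGF and ERK response genes and 1 to 3 endothelial genes, and differences of -0.83 to 0.20 for Ets2, -0.60 to 0.082 for Etv4, -0.58 to 0.18 for Etv5, 0.38 to 1.48 for Etv2, 0.24 to 0.64 for Etv6, -1.24 to -0.54 for Elk3, -1.48 to -0.97 for Ets1, -0.26 to -0.0090 for Elf2, -0.19 to 0.029 for Elf1 and -0.38 to 0.084 for Elf4. Array removal and the log2 table in the columns as named are left out of the following ranges. Over the other settings adjusted p-values (limma) ran from 0.012 to 0.948 for Ets1 and from 0.013 to 0.730 for Elk3. Slide and scan as a block were not run, because all arrays share both. Dim probes limit Etv2 most, where 1 of 3 uninduced arrays was not well above background on the second probe. Elf4 was dim on its only probe as well.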
